A study of Bos taurus with 30 samples.

Results

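The 10 trophoblast transcription factors described here are CDX2, GATA2, GATA3, TFAP2A, TFAP2C, TEAD4, ELF3, ELF5, HAND1 and DLX3. They were taken by name from the 35092 genes of the count table, through their Entrez gene IDs, and all 10 were found. The libraries are poly(A)-selected RNA from the embryonic disc (ED) and the extra-embryonic membranes (EEM) of Holstein (Bos taurus) conceptuses flushed on day 15. In vitro produced (IVP) embryos came from slaughterhouse oocytes, were cultured without serum and were transferred to synchronized recipient cows on day 7. In vivo (IVV) embryos were conceived by artificial insemination of superovulated Holstein cows, with semen of a single bull in both groups. There were 16 ED libraries (7 IVP, 9 IVV) and 14 EEM libraries (6 IVP, 8 IVV), and 13 embryos (5 IVP, 8 IVV) contributed both. IVP and IVV embryos developed in different cows, a pair of cows per procedure, so that an effect of the cow cannot be told apart from that of the procedure. Embryos are named as in the sample titles, IVP followed by a number or letter for IVP and VE followed by a number for IVV.

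The trophoblast is the outer epithelium of the conceptus, which elongates before implantation in ruminants, secretes interferon tau and later forms the fetal placenta. In the mouse blastocyst, TEAD4 is the DNA-binding partner of the Hippo coactivators and acts upstream of CDX2 and GATA3. GATA2, GATA3, TFAP2A and TFAP2C are widely used to define trophoblast identity, whereas HAND1 is also a gene of extra-embryonic and lateral plate mesoderm, and DLX3 and TFAP2A are also genes of surface ectoderm.

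Library totals ran from 48713218 to 63037371 counts, with group medians from 53960994 to 55230430. Levels are given as CPM, the count of a gene relative to the library total, scaled with TMM factors, and their errors are the spread between embryos. The tissue labels held in every library. POU5F1, a pluripotency gene of the epiblast, ran from 16.4 to 228 CPM over the ED libraries and reached 2.44 CPM at most in the EEM, and NANOG reached 0.195 CPM at most in the EEM against at least 2.71 CPM in the ED. SOX2 and UTF1, also epiblast genes, were listed at 0 in all 30 libraries, as were PPARG and BHLHE40 among the trophoblast regulators. Both tissues held trophoblast transcripts, since the summed level of 23 trophoblast products had medians of 48413 (IVP) and 44443 CPM (IVV) in the ED and of 67255 and 65922 CPM in the EEM. Markers of maternal blood summed to 1.08 CPM at most and markers of maternal uterus to 2.61 CPM at most.

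Libraries stood apart in 3 ways that touch the results. First, over 12274 genes, the deviations of the ED and EEM libraries of the same embryo from their group means correlated with a median r of 0.54 (highest 0.76), and 12 of 13 embryos matched their own other tissue best. The exception was IVPF13, whose ED and EEM libraries correlated at -0.30. The IVPF13 ED library was most like the EEM library of IVPF14 (r = 0.53), and the IVPF13 EEM library was most like the ED library of IVPF15 (r = 0.41). The ED libraries of IVPF13 and IVPF14 correlated at 0.49. The labels give the ED and EEM libraries in question the name IVPF13, and whether they came from 1 embryo could not be settled here. The ratios of IVPF13, the number of 13 pairs and the number of 7 separate IVP discs therefore rest on the labels. Differences and relations between tissues are also given without IVPF13. For IVP over IVV in the ED, the log2 fold change of HAND1 was -1.30 (adjusted p = 0.109 in edgeR) without IVPF13. Those of CDX2 and GATA2 were 0.57 (adjusted p = 0.527) and 0.66 (adjusted p = 0.399). Second, XIST, the RNA of X inactivation, lay between 45.1 and 424 CPM in 13 libraries and at 0.591 CPM or less in the other 17. The 13 libraries came from 7 of 9 IVV embryos, whereas all 13 IVP libraries and those of the IVV embryos VE3 and VE5 were in the low set. The sex of single embryos is not in the labels, and the level of XIST and the procedure could be separated only through these last 2 embryos. In addition, the summed trophoblast products of the ED library of IVPF10 were at 15197 CPM, against 38002 CPM or more in each of the other 29 libraries. That library was the lowest IVP disc for GATA3, TFAP2A and DLX3, whose log2 fold changes of IVP over IVV in the ED, 0.06, 0.32 and -0.25 with all libraries, were 0.17, 0.43 and -0.19 without IVPF10, with adjusted p-values in edgeR between 0.475 and 0.801, and the part of its trophoblast content was not tested.

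All 10 factors were detected in every library, with 5 counts in the lowest library of any member (HAND1 in the EEM of VE19). The first comparison asked how the factors differed between IVP and IVV embryos in each tissue. In edgeR's quasi-likelihood test with 1 surrogate variable and Benjamini-Hochberg adjustment over all genes tested, 0 of 10 members were DEG in the ED and 0 of 10 in the EEM. Before adjustment, 1 member had a p under 0.05 in the ED (HAND1) and 1 in the EEM (GATA2), where 18.4% and 13.7% of all genes did. DESeq2 called 0 members in either tissue, beside 9.61% of all genes in the ED and 5.46% in the EEM. With limma voom, 1 was called in the ED (HAND1) and 0 in the EEM, beside 4.99% and 3.38%. Among all 15733 genes tested in the ED, edgeR called 1.40% higher and 4.95% lower in IVP embryos. Among 14718 genes tested in the EEM it called 2.29% higher and 1.52% lower. The median log2 fold change of the members was 0.20 in the ED and 0.07 in the EEM, against -0.01 and 0.00 over all genes.

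**Figure D1:**
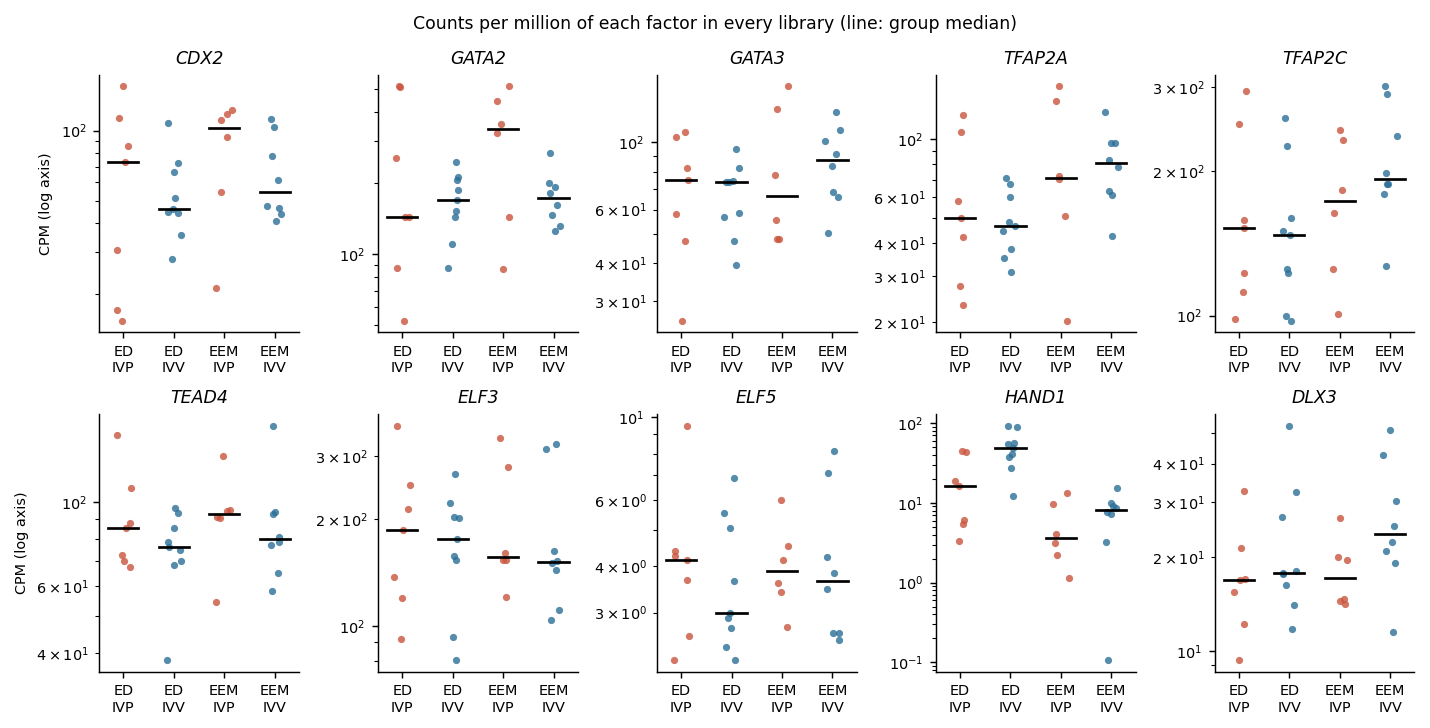
Level of each factor in CPM on a log axis, in the ED and EEM of IVP (orange) and IVV (blue) embryos. Each point is a library and each line a group median. The groups overlap for every factor, and HAND1 runs from 12.1 to 93.1 CPM in the ED of IVV embryos but from 0.107 to 15.4 CPM in their EEM.

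TEAD4, the Hippo effector, was at a lowest of 67.4, a median of 85.2 and a highest of 150 CPM in the ED of IVP embryos, and at 38.4, 76.2 and 96.6 CPM in the same tissue of IVV embryos. In the EEM it was at 54.6, 92.9 and 132 CPM (IVP) and at 58.4, 79.8 and 159 CPM (IVV). The groups overlapped in both tissues, and the log2 fold changes of IVP over IVV were 0.20 (SE 0.20, adjusted p = 0.699 in edgeR) in the ED and 0.09 (SE 0.23, adjusted p = 0.981) in the EEM. The 95% interval of the ED value ran from -0.22 to 0.62. The lncRNA LOC132345350, which overlaps TEAD4 in the annotation, has no value here, and reads of overlapping genes cannot be told apart because the libraries were not stranded.

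CDX2, the caudal-type homeobox factor of the trophectoderm, spread widely between IVP embryos. In the ED it ran from 15.3 (IVPF14) over a median of 73.2 to 155 CPM (IVPF15) in IVP embryos, and from 28.0 over 45.9 to 108 CPM in IVV embryos. In the EEM it ran from 21.1 (IVPF14) over 102 to 122 CPM in IVP and from 41.1 over 54.4 to 112 CPM in IVV embryos. In the ED, 2 IVP embryos lay below and 2 above all IVV embryos, so that the difference of means (log2 fold change 0.35, SE 0.41, adjusted p = 0.754 in edgeR) was small beside the spread within IVP. The EEM value was 0.44 (SE 0.29, adjusted p = 0.610).

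The GATA factors bind the same core motif and share many trophoblast targets. GATA2 ran from 52.4 (IVPF14) over 144 to 511 CPM in the ED of IVP embryos, and from 87.4 over 170 to 245 CPM in that of IVV embryos. In the EEM it ran from 86.4 over 338 to 512 CPM (IVP) and from 125 over 172 to 267 CPM (IVV). Of the 6 IVP embryos, 4 lay above all IVV embryos in the EEM and 1 below them. The log2 fold change in the EEM was 0.82 (SE 0.30, 95% interval 0.21 to 1.43, 1.77-fold), with an unadjusted p of 0.0105 and an adjusted p of 0.145 in edgeR. It missed the threshold in 12 of 13 alternatives, with values from 0.63 (limma voom, adjusted p = 0.428) to 1.00 (XIST as a covariate, adjusted p = 0.557), and on leaving out 12 of 14 embryos in turn. It passed with 2 surrogate variables (1.00, adjusted p = 0.0121), without IVPF14 (1.01, adjusted p = 0.0175) and without VE19 (0.94, adjusted p = 0.0284). In the ED the value was 0.48 (SE 0.37, adjusted p = 0.567). It missed the threshold under every alternative run, but ran from 0.12 with limma voom to 0.93 with XIST as a covariate, and from 0.17 without IVP10 to 0.71 without IVPF14. GATA3 had medians of 74.9 and 74.1 CPM in the ED and of 66.7 and 87.5 CPM in the EEM of IVP and IVV embryos. Its log2 fold changes were 0.06 (95% interval -0.47 to 0.59) and -0.04 (-0.60 to 0.53). The lncRNA LOC112449253, which overlaps GATA3, held 0 counts in every library.

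TFAP2A and TFAP2C encode AP-2 alpha and AP-2 gamma, of which AP-2 gamma is needed to maintain the trophectoderm lineage in mice. TFAP2A ran from 23.2 over 50.1 to 123 CPM in the ED of IVP and from 31.2 over 46.6 to 71.2 CPM in that of IVV embryos, and from 20.3 over 71.2 to 159 CPM and from 42.7 over 80.9 to 127 CPM in the EEM. TFAP2C ran from 98.5 over 152 to 294 CPM (IVP) and from 97.6 over 147 to 259 CPM (IVV) in the ED, and from 101 over 173 to 244 CPM and from 127 over 193 to 301 CPM in the EEM. The ranges of IVP and IVV embryos overlapped for both genes in both tissues, with adjusted p-values between 0.668 and 0.988 in edgeR.

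ELF3 and ELF5 are epithelial ETS factors, and ELF5 is a marker of the trophoblast stem cell state in mice. ELF3 ran from 92.0 over 186 to 365 CPM (IVP) and from 80.4 over 175 to 267 CPM (IVV) in the ED, and from 121 over 157 to 336 CPM and from 104 over 151 to 323 CPM in the EEM. ELF5 ran from 2.24 over 4.16 to 9.51 CPM (IVP) and from 2.24 over 2.99 to 6.88 CPM (IVV) in the ED, and from 2.75 over 3.87 to 6.00 CPM and from 2.54 over 3.65 to 8.14 CPM in the EEM. The intervals of the log2 fold change held 0 in both tissues, from -0.30 to 0.68 (ED) and -0.26 to 0.78 (EEM) for ELF3 and from -0.34 to 0.78 and -0.52 to 0.64 for ELF5. IVP11 was highest for ELF3 in both tissues of the IVP group.

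HAND1, a basic helix-loop-helix factor, had the largest difference of the 10 in the ED. It ran from 3.28 (IVPF14) over 16.2 to 44.5 CPM in IVP embryos and from 12.1 (VE19) over 48.2 to 93.1 CPM in IVV embryos. The groups overlapped, with 3 of 7 IVP values below the lowest IVV value and 5 of 9 IVV values above the highest IVP value. The log2 fold change was -1.43 (SE 0.45, 95% interval -2.37 to -0.49, 2.70-fold lower), with an unadjusted p of 0.00443 and an adjusted p of 0.0614 in edgeR. The call depended on the setting, with 5 of 13 alternatives past the threshold and 8 not. HAND1 passed with 2 surrogate variables (-1.25, adjusted p = 0.0480), limma voom (-1.95, adjusted p = 0.0182), upper quartile normalization (-1.56, adjusted p = 0.0318), no filter on low counts (-1.42, adjusted p = 0.0259) and a term for the last letter of the sample title (-1.48, adjusted p = 0.0166). In the 8 others, which included DESeq2 (-1.41, adjusted p = 0.0737), no surrogate variable (-1.40, adjusted p = 0.0538) and the embryos with both tissues (-1.27, adjusted p = 0.146), the adjusted p lay between 0.0538 and 0.829, the last with the level of XIST as a covariate (-0.59). The IVV embryos with low XIST, VE3 and VE5, had 27.5 and 37.7 CPM of HAND1 in the ED, whereas the other 7 ran from 12.1 to 93.1 CPM.

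Of 12 primitive streak and mesoderm markers, 9 were called lower in the ED of IVP embryos, beside 4.95% of all genes. The other 3 were not called, of which PDGFRA (log2 fold change 0.59, adjusted p = 0.294 in edgeR) and TWIST1 (0.55, adjusted p = 0.751) had a positive value. Among the 9 were TBXT (log2 fold change -3.92, SE 0.90, adjusted p = 0.00901), MIXL1 (-2.21, SE 0.36, adjusted p = 0.000473) and FOXF1 (-3.75, SE 0.68, adjusted p = 0.00154). The summed level of the 12 ran from 67.9 over 82.8 to 164 CPM in IVP and from 110 over 147 to 213 CPM in IVV embryos. Of 9 tested epiblast markers 2 were called lower, beside the same 4.95% of all genes, including POU5F1 (-1.72, SE 0.36, adjusted p = 0.00479). The summed epiblast level ran from 229 to 581 CPM in IVP against 214 to 1017 CPM in IVV embryos. Across the 16 ED libraries, HAND1 and the summed streak and mesoderm level correlated with r = 0.44 and rho = 0.38 (permutation p = 0.0891 and 0.145). The r was 0.36 without the 2 libraries farthest from the median of HAND1, and it was -0.01 within IVP and 0.07 within IVV embryos. It was one of 80 relations between a member and a marker list, of which 7 had a permutation p of r under 0.05 and 0 passed the threshold after adjustment. In bulk libraries, fewer cells of a type and less RNA per cell cannot be told apart, and the part of these cells in the level of HAND1 was not tested.

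In the EEM, HAND1 ran from 1.14 (IVPF14) over 3.59 to 13.1 CPM (IVPF13) in IVP and from 0.107 (VE19) over 8.09 to 15.4 CPM in IVV embryos. The log2 fold change was -0.44 (SE 0.55, adjusted p = 0.908 in edgeR). It was -1.05 (adjusted p = 0.410) without IVPF13 and 0.20 (adjusted p = 0.985) with XIST as a covariate. VE19 was also the lowest IVV embryo for HAND1 in the ED.

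DLX3, a distal-less homeobox factor of placenta and epidermis, ran from 9.35 over 16.9 to 32.6 CPM (IVP) and from 11.8 over 17.8 to 53.0 CPM (IVV) in the ED. In the EEM it ran from 14.1 over 17.2 to 26.7 CPM and from 11.5 over 23.8 to 51.3 CPM, with 3 of 8 IVV embryos above all IVP embryos and 1 below. The log2 fold changes were -0.25 (SE 0.29, adjusted p = 0.750 in edgeR) in the ED and -0.52 (SE 0.25, adjusted p = 0.378) in the EEM, and the 95% interval of the latter ran from -1.04 to 0.01. The ED value missed the threshold under every alternative run. It ran from -0.42 without a surrogate variable to -0.04 with XIST as a covariate, and from -0.48 to -0.13 on leaving out 1 embryo.

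**Figure D2:**
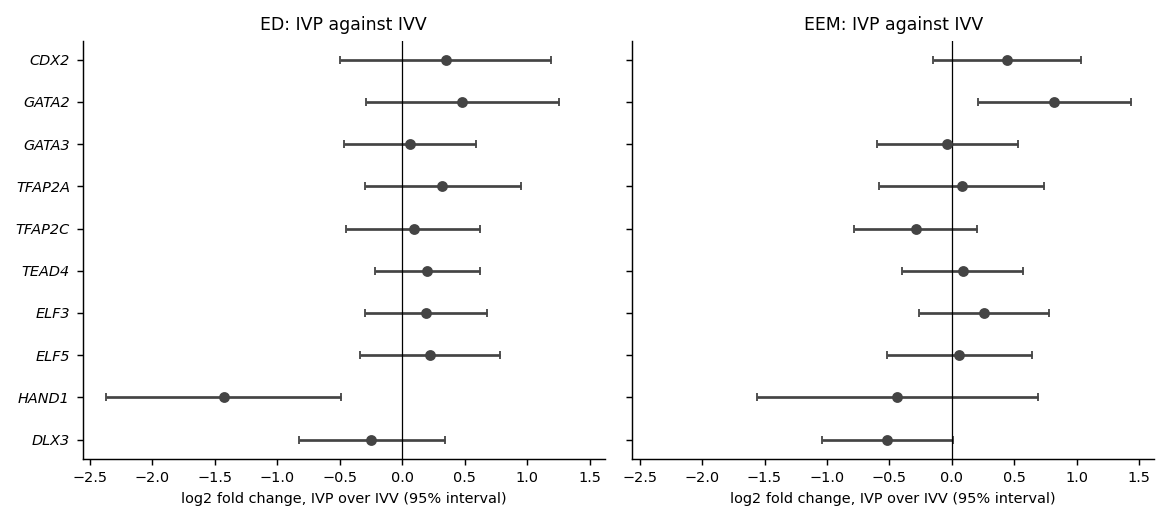
Log2 fold change of IVP over IVV for each factor with its 95% interval, in the ED (left) and the EEM (right). The interval excludes 0 for HAND1 in the ED (-2.37 to -0.49) and for GATA2 in the EEM (0.21 to 1.43), and neither passed the adjusted threshold.

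The width of the spread was compared after the values had been seen. In the ED, the standard deviation of log2 CPM was 1.34 in IVP and 0.58 in IVV embryos for CDX2, 1.24 and 0.48 for GATA2, and 0.90 and 0.41 for TFAP2A. The highest embryo had 10.1 times the CDX2 level of the lowest in IVP and 3.84 times in IVV. An exact permutation test of the absolute deviations from the group median gave 0.0637 for CDX2 (n = 7 and 9), 0.0566 for GATA2 and 0.0813 for TFAP2A. The exact p of GATA2 was the smallest of the 20 tests over members and tissues, so that a difference in spread was not shown. These tests take each library as a separate embryo, which for IVPF13 and IVPF14 rests on the labels. IVPF14 was the lowest IVP embryo for 4 members in the ED (CDX2, GATA2, HAND1 and TFAP2C) and for 6 in the EEM (these and DLX3 and TFAP2A). It was also the lowest IVP embryo in both tissues for the summed level of the other trophoblast regulators (1068 CPM in the ED and 1276 CPM in the EEM), of the paralogs (422 and 443 CPM) and of the Hippo list (682 and 669 CPM), so that its low level was not particular to the 10 factors. CEBPB, a regulator named after its values were seen, held 0 counts in its ED library. Its summed trophoblast products, at 48413 CPM in the ED and 55698 CPM in the EEM, lay within the range of the other IVP embryos.

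The second comparison asked how the factors differed between the ED and the EEM of the same embryo. In the 26 libraries of the 13 embryos with both tissues, with embryo as a block, 1 of 10 members was called higher in the ED and 2 were called lower. Of 15874 genes tested, 14% were called higher and 10.2% lower, and the members' median log2 fold change was -0.22 against -0.09 over all genes. HAND1 was higher in the ED, and TFAP2A and TFAP2C were lower.

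HAND1 was higher in the ED in 12 of 13 embryos. Its ratio of ED over EEM ran from 0.465 (IVPF13) over 5.34 to 113 (VE19), and it was at least 3.61 in all 8 IVV embryos. The extreme ratio of VE19 rests on 5 counts in its EEM library against 598 counts in its ED library. The log2 fold change was 2.37 (SE 0.38, 95% interval 1.57 to 3.16, 5.16-fold higher, adjusted p = 9.92e-05 in edgeR), and it was 2.60 (adjusted p = 4.02e-06) without IVPF13. Streak and mesoderm markers also stood higher in the ED, with 9 of 12 called, and the part of those cells in HAND1 was not tested. TBXT held 0 counts in every EEM library.

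TFAP2C was lower in the ED in 12 of 13 embryos and in all 8 IVV embryos, with ratios from 0.544 (VE29) over 0.788 to 1.26 (IVP10). Its log2 fold change was -0.36 (SE 0.10, 95% interval -0.56 to -0.16, 1.28-fold lower, adjusted p = 0.0107 in edgeR). TFAP2A was lower in 10 of 13 embryos, with ratios from 0.266 (IVPF13) over 0.730 to 1.36 (IVPF14), and its log2 fold change was -0.57 (SE 0.16, 1.48-fold lower, adjusted p = 0.0154). Without IVPF13 the values were -0.33 (adjusted p = 0.0291) for TFAP2C and -0.45 (adjusted p = 0.0317) for TFAP2A. Both stayed lower but missed the threshold with upper quartile normalization, at -0.23 (adjusted p = 0.0898) for TFAP2C and -0.44 (adjusted p = 0.0547) for TFAP2A, a scaling that moved the median of all genes from -0.09 to 0.03. Group medians of the summed trophoblast products were lower in the ED than in the EEM as well (above). Within embryos, the sum was higher in the ED in IVP11 (85408 against 80095 CPM) and VE24 (47134 against 41517 CPM), and lower in the others. The share of trophoblast cells in the ED libraries was not tested.

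The other 7 factors did not pass the threshold between tissues. CDX2 had ratios from 0.154 (IVPF13) over 0.909 to 1.08, was lower in the ED in 11 of 13 embryos and in all 5 IVP embryos, and had a log2 fold change of -0.43 (SE 0.17, adjusted p = 0.0771 in edgeR), or -0.26 (adjusted p = 0.0613) without IVPF13. GATA2 and GATA3 both had -0.31 (SE 0.16, adjusted p = 0.156, and SE 0.14, adjusted p = 0.102), or -0.18 (adjusted p = 0.295) and -0.25 (adjusted p = 0.205) without IVPF13. For TEAD4, ELF3, ELF5 and DLX3 the values lay between -0.13 and -0.09, and the widest of their 95% intervals, that of ELF5, ran from -0.43 to 0.24. Without IVPF13 these 4 values lay between -0.13 and -0.10, with adjusted p-values between 0.425 and 0.695. With upper quartile normalization and all 13 embryos they were 0.00 to 0.04.

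**Figure D3:**
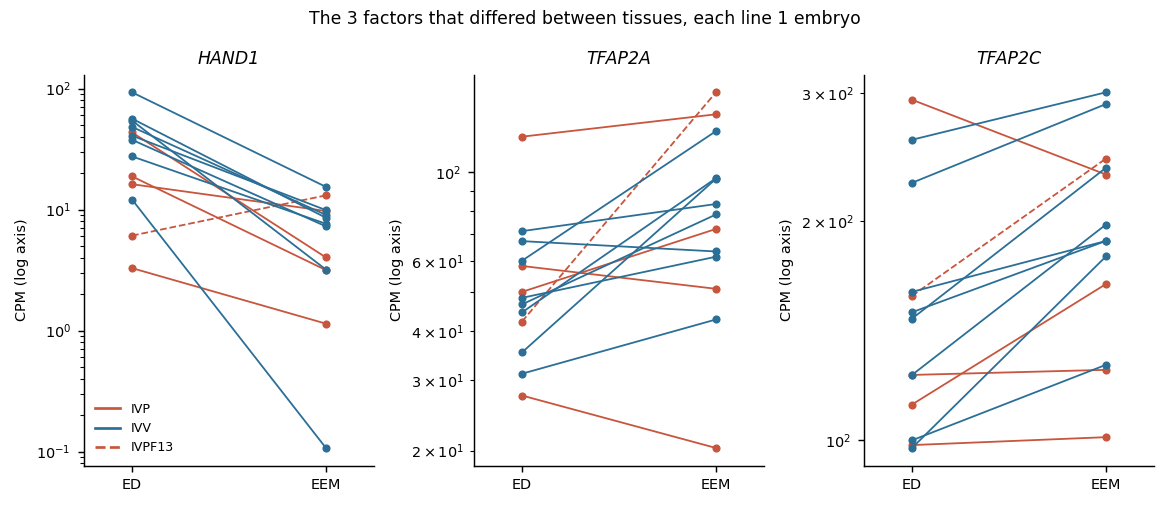
CPM of HAND1, TFAP2A and TFAP2C on log axes in the ED and the EEM, each line joining the libraries of 1 embryo (IVP orange, IVV blue, IVPF13 dashed). HAND1 falls from the ED to the EEM in 12 of 13 embryos and TFAP2C rises in 12 of 13.

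Within the 8 IVV embryos, HAND1 (log2 fold change 2.86, SE 0.43, adjusted p = 4.53e-05), TFAP2A (-0.66, SE 0.21, adjusted p = 0.0271) and TFAP2C (-0.46, SE 0.12, adjusted p = 0.0114) were the members called in edgeR, where 15.6% of 16784 genes were called higher and 6.55% lower in the ED. Within the 5 IVP embryos, 0 of 10 members were called, 3 had an unadjusted p under 0.05 (HAND1, CDX2 and GATA2) beside 17.0% of all genes, and 4.18% of genes were called higher and 0.649% lower. The IVP values were 1.43 (SE 0.56, adjusted p = 0.180) for HAND1, -0.42 (SE 0.27, adjusted p = 0.466) for TFAP2A and -0.21 (SE 0.16, adjusted p = 0.546) for TFAP2C. Without IVPF13, HAND1 was called higher in the ED of the other 4 IVP embryos (2.03, SE 0.51, adjusted p = 0.0306), TFAP2A and TFAP2C were at -0.06 and -0.10, and the same 3 members were called in the IVV embryos.

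The difference between these tissue effects was itself tested. For the interaction of tissue and procedure, 0 of 10 members passed the threshold in edgeR and 0 had an unadjusted p under 0.05, beside 10.3% of all genes. DESeq2 and limma voom with embryo as a random block also called 0, beside 2.59% and 2.06% of all genes. Over 16784 genes in edgeR, 0.107% had an ED over EEM difference called larger and 0.918% called smaller in IVP than in IVV embryos. HAND1 had -1.43 (SE 0.69, 95% interval -2.88 to 0.02, adjusted p = 0.495) and CDX2 -0.62 (SE 0.33, adjusted p = 0.554). Both rested in part on IVPF13, without which they were -0.82 (adjusted p = 0.776) and -0.20 (adjusted p = 0.881). GATA2 went from -0.50 to -0.18 and TFAP2A from 0.24 to 0.60 on leaving out IVPF13, and 0 of 10 members passed without it.

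**Figure D4:**
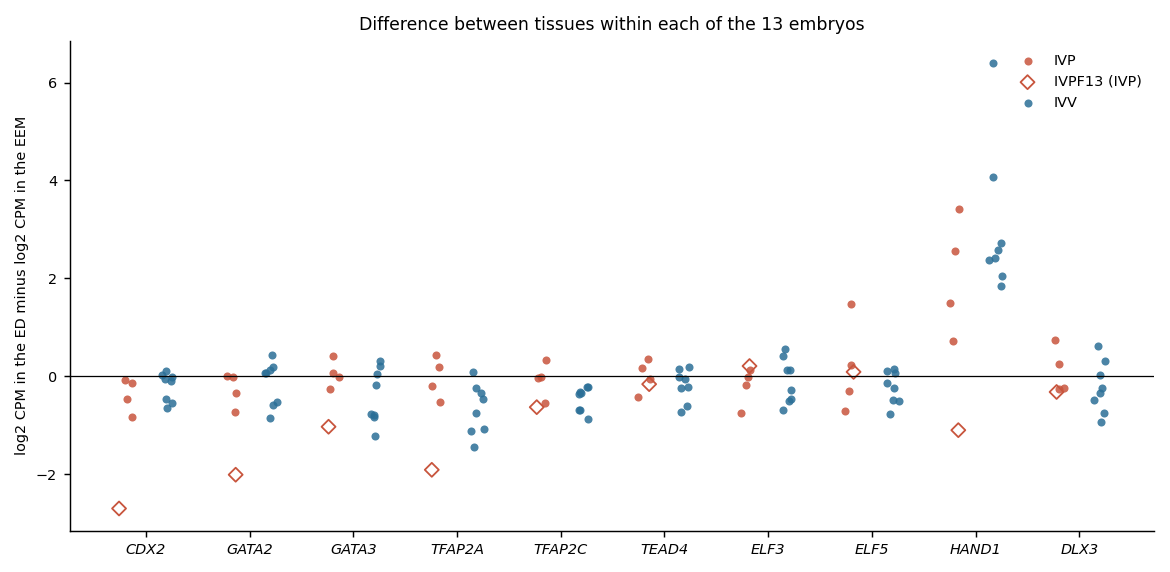
Log2 CPM in the ED minus log2 CPM in the EEM for each factor in each of the 13 embryos with both tissues (IVP orange, IVV blue, IVPF13 as open diamonds). HAND1 lies above 0 in every embryo but IVPF13, and IVPF13 is the lowest point for CDX2, GATA2, TFAP2A and HAND1.

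The relation between the level of a factor in the ED and in the EEM of the same embryo was examined after the values had been seen, over the 13 embryos, on log2 CPM with permutation tests adjusted over the 10 relations. By r it passed the threshold for 6 members, of which GATA2 did not pass by rho (adjusted p = 0.0705). The smallest r of these 6 was 0.63, and 47.2% of 12271 genes had an r at least as high over the same embryos, with a median r of 0.61 over all genes and 0.64 over the members, so that the count is near that of genes in general and is no result about the factors. Pearson's r was 0.79 for ELF3 (rho 0.79, permutation p = 0.00188, adjusted p = 0.0094) and 0.78 for TFAP2C (rho 0.75, permutation p = 0.00176, adjusted p = 0.0094), and it was 0.68 and 0.79 without the 2 embryos farthest from the ED median. For TEAD4 it was 0.72 (rho 0.70, permutation p = 0.0073, 0.66 without the 2 farthest) and for DLX3 0.67 (rho 0.73, permutation p = 0.0135, 0.68 without them). For CDX2 it was 0.63 (rho 0.65, permutation p = 0.0223, 0.88 without them), and 0.93 over the 12 embryos other than IVPF13. For GATA2 it was 0.66 (rho 0.58, permutation p = 0.014), but 0.15 without the 2 farthest, so that it rested on those embryos. Over the 12 embryos other than IVPF13, r for GATA2 was 0.87, and 0.61 without the 2 farthest of these.

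The remaining 4 relations were 0.54 for TFAP2A, 0.53 for ELF5, 0.44 for HAND1 and 0.40 for GATA3, with rho of 0.32, 0.56, 0.35 and 0.35 and adjusted permutation p-values of r of 0.0771, 0.0771, 0.143 and 0.168. Over the 12 embryos other than IVPF13, 7 members passed by r, the 6 above and TFAP2A (r = 0.66, permutation p = 0.0212, adjusted p = 0.0303), which did not pass by rho (0.50, adjusted p = 0.115) and had an r of 0.23 without the 2 farthest. The smallest r of the 7 was 0.66, which 49% of all genes reached, with a median of 0.66 over all genes and 0.70 over the members. Over these 12 embryos, r was 0.80 for ELF3, 0.79 for TFAP2C, 0.72 for TEAD4, 0.67 for DLX3, 0.63 for HAND1 (adjusted p = 0.0564), 0.53 for ELF5 (adjusted p = 0.0814) and 0.41 for GATA3 (adjusted p = 0.183). Within the 8 IVV embryos, r was 0.87 for CDX2 (exact p = 0.00223), 0.87 for TFAP2C (exact p = 0.00652), 0.86 for ELF5 (exact p = 0.0113), 0.83 for HAND1 (exact p = 0.0298) and 0.71 for ELF3 (exact p = 0.0453), none of these p-values being adjusted. It was 0.70 for TEAD4 (exact p = 0.104), 0.70 for DLX3 (exact p = 0.0557), 0.45 for GATA2 (exact p = 0.265), 0.35 for TFAP2A (exact p = 0.403) and 0.13 for GATA3 (exact p = 0.761). No value is given for the 5 IVP embryos, since correlations were limited to 6 embryos or more. Both tissues of an embryo share its cow, its genotype and its developmental stage.

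**Figure D5:**
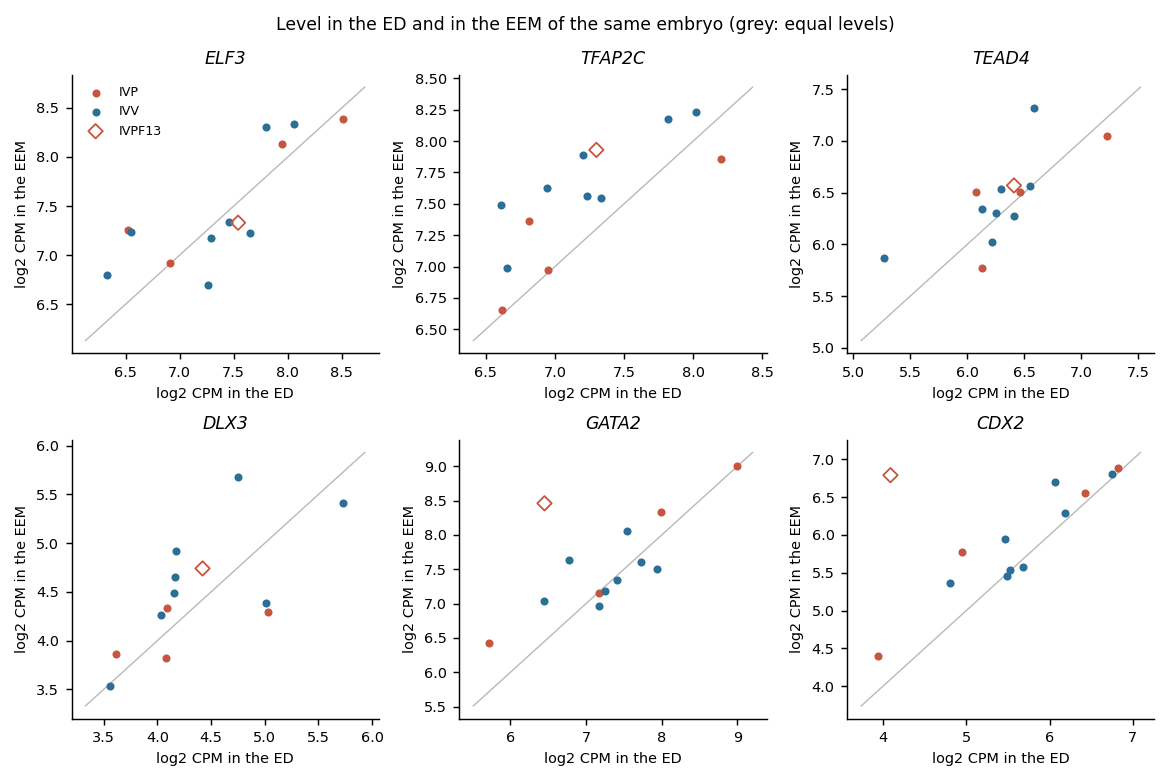
Log2 CPM in the ED (x axis) and in the EEM (y axis) of the same embryo for the 6 factors whose r passed the threshold over 13 embryos (IVP orange, IVV blue, IVPF13 as an open diamond, grey line for equal levels). IVPF13 lies far above the line for CDX2 and GATA2, where it has 17.0 and 87.7 CPM in the ED and 111 and 353 CPM in the EEM.

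The factors were also compared with one another, within each tissue, on log2 CPM. Of the 90 pairs, 1 passed the threshold, GATA2 with TFAP2A in the ED, with r = 0.80 and rho = 0.77 over 16 libraries (permutation p = 0.00026, adjusted p = 0.0234 for r and 0.0621 for rho). It was 0.59 without the 2 libraries farthest from the median of GATA2, 0.87 within IVP and 0.54 within IVV embryos. In the ED, 29 of 45 pairs had a positive r with a median of 0.12, and in the EEM 25 of 45 with a median of 0.04, from -0.59 (ELF3 with HAND1) to 0.73 (GATA3 with DLX3). GATA3 with DLX3 in the EEM had an adjusted p of 0.0867 by permutation, an r of 0.94 within IVP and 0.83 within IVV embryos.

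The genes most like each factor were sought among 11703 named genes in the ED and 11054 in the EEM, by Pearson's r of log2 CPM over 16 and 14 libraries, as a description. CDX2 was most like GSK3A (0.96) and KLF16 (0.94) in the ED and KLF16 (0.93) and PTMS (0.91) in the EEM, so that KLF16, a Krüppel-like factor, came up in both tissues. Both searches draw on mostly the same embryos, whose tissues resembled each other (above), so its return is no separate result. HAND1 was most like COL22A1 (0.92) and FAM20C (0.91) in the ED and AXL (0.92), a receptor tyrosine kinase, and NOG (0.90), the BMP antagonist noggin, in the EEM. DLX3 was most like its paralog DLX5 (0.91) and ST6GALNAC1 (0.86) in the ED and HOOK2 and TRAIP (both 0.92) in the EEM. TFAP2A was most like ITM2B (0.91) and SSBP3 (0.89) in the ED and CCDC88B (0.94) and PLEKHH3 (0.93) in the EEM, and TFAP2C like NUS1 (0.87) and ZNF384 (0.85), then ZSCAN16 (0.90) and CDK16 (0.86).

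For GATA2 the nearest genes were KMT5C (0.87) and CAMSAP3 (0.86) in the ED and CSF2RA (0.88) and MOG (0.86) in the EEM, and for GATA3 SMIM13 and RALGPS2 (both 0.82), then FBXW5 and CNNM2 (both 0.83). For TEAD4 they were WASF2 (0.90) and USP22 (0.88) in the ED and TP53BP2 (0.94) and HDAC3 (0.91) in the EEM. For ELF3 they were CSRP2 (0.92) and WDR5 (0.91), then EIF4EBP1 and TLCD1 (both 0.92), and for ELF5 SEC11A (0.88) and CLDN3 (0.87), then HDHD5 (0.87) and P4HTM (0.86). Only the nearest of all genes searched are named, so their r lies at the upper end by construction.

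Paralogs, the other genes of the same families, were followed in the same fits. Of 18 paralogs tested in the ED, 1 was called higher in IVP embryos and 5 lower, beside 1.40% and 4.95% of all genes, with a median log2 fold change of -0.18. DLX2, a distal-less homeobox gene, ran from 0.646 to 8.07 CPM in IVV and from 0.00 to 1.99 CPM in IVP embryos (log2 fold change -2.96, SE 0.60, adjusted p = 0.00350 in edgeR). CDX1 was at 0.101 to 1.34 CPM in IVV and at 0.174 CPM at most in IVP embryos (-3.26, SE 0.68, adjusted p = 0.00477), and GATA5 was at 0.303 to 2.85 and 0.226 to 0.694 CPM (-1.81, SE 0.42, adjusted p = 0.0107). These levels are low, with at most 87 counts of CDX1 and 187 of GATA5 in an ED library. TFAP2B was higher in IVP embryos in the ED (1.51, SE 0.44, adjusted p = 0.0401) and in the EEM (1.60, SE 0.37, adjusted p = 0.0111), and it was the 1 of 14 paralogs called in the EEM, beside 2.29% of all genes called higher and 1.52% lower. Its level was low too, at 0.242 to 0.815 CPM (IVP) and 0.0351 to 0.382 CPM (IVV) in the ED and 0.530 to 1.26 CPM and at most 0.534 CPM in the EEM, with at most 40 counts in an ED and 63 in an EEM library.

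Between tissues, 5 of 19 paralogs were called higher in the ED and 4 lower, beside 14% and 10.2% of all genes, with a median of 0.09. CDX1 held 2 counts or fewer in every EEM library, so no fold is given. CDX4 was called higher in the ED (adjusted p = 0.000282 in edgeR) and reached 2.97 CPM in the ED and 0.122 CPM in the EEM. It held 6 counts or fewer in every EEM library, so its fold is not given either. GATA5 was also called higher in the ED (adjusted p = 1.32e-06), but held 3 counts or fewer in every EEM library of IVP and 13 or fewer in those of IVV embryos, so no fold is given. DLX5 (log2 fold change -0.85, SE 0.16, adjusted p = 0.000693), DLX6 (-0.89, SE 0.18, adjusted p = 0.000941) and TEAD3 (-0.48, SE 0.14, adjusted p = 0.0156) were lower in the ED, whereas DLX3 and TEAD4 of the same families did not pass. In the interaction 1 of 19 paralogs was called, TFAP2E, whose ED over EEM difference was smaller in IVP embryos (adjusted p = 0.00399 in edgeR). Of all genes, 0.918% were called smaller and 0.107% larger. TFAP2E held 2 to 6 counts in the EEM libraries of IVV embryos, 0 to 20 in the ED libraries of IVP embryos and at most 97 in any library, so no fold is given.

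Of 27 other trophoblast regulators tested in the ED, 0 were called higher and 3 lower in IVP embryos, beside 1.40% and 4.95% of all genes, namely MSX2, a homeobox repressor (log2 fold change -1.20, SE 0.23, adjusted p = 0.00190 in edgeR), HEY1, a Notch target (-1.88, SE 0.35, adjusted p = 0.00194), and SKIL, an inhibitor of TGF-beta signaling (-0.91, SE 0.25, adjusted p = 0.0282). In the EEM, HEY1 (-1.62, SE 0.37, adjusted p = 0.00952) and KLF4 (-1.63, SE 0.30, adjusted p = 0.00134) were lower and MBNL3 (1.18, SE 0.31, adjusted p = 0.0272) was higher, of 27 tested, beside 1.52% and 2.29% of all genes. KLF4 ran from 30.3 to 122 CPM in the EEM of IVP and from 99.4 to 365 CPM in that of IVV embryos. The medians of the list were -0.15 in the ED and -0.24 in the EEM. Between tissues 4 of 27 were called higher and 7 lower in the ED, beside 14% and 10.2% of all genes, with a median of -0.26, among them MBNL3 (1.03, SE 0.18), ESRRB (1.40, SE 0.34), ETS2, an activator of interferon tau (-0.43, SE 0.09), and ASCL2 (-0.74, SE 0.19).

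The Hippo list around TEAD4 held 18 genes, all tested. None was called between IVP and IVV embryos in edgeR, with medians of 0.07 in the ED and 0.05 in the EEM, and 3 and 5 had an unadjusted p under 0.05, beside 18.4% and 13.7% of all genes. Between tissues, AMOTL1, an angiomotin that binds YAP, was higher in the ED (1.31, SE 0.18, adjusted p = 1.44e-05). NF2 (-0.44, SE 0.13, adjusted p = 0.0193) and the YAP and TEAD targets CCN2 (-0.57, SE 0.19, adjusted p = 0.0336) and CCN1 (-0.71, SE 0.24, adjusted p = 0.0346) were lower. These are 1 higher and 3 lower of 18, beside 14% and 10.2% of all genes, and the median of the list was -0.18.

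Of 22 products of the trophoblast tested in the ED, 1 was called higher and 2 lower in IVP embryos, beside 1.40% and 4.95% of all genes, with a median of 0.11. Of 21 in the EEM 3 were called higher and 1 lower, beside 2.29% and 1.52%, with a median of 0.14. The ED counts are near the general rate. HSD3B1, a steroid dehydrogenase, was higher in IVP embryos in the ED, at 41.9 to 188 CPM against 20.6 to 59.6 CPM (log2 fold change 2.08, SE 0.28, adjusted p = 5.44e-05 in edgeR), and in the EEM, at 155 to 282 CPM against 20.8 to 77.5 CPM (2.09, SE 0.28, adjusted p = 5.11e-05). The groups did not overlap in the EEM. KRT7, a simple epithelial keratin, was lower in both tissues (-0.95, SE 0.25, adjusted p = 0.0252, and -0.93, SE 0.26, adjusted p = 0.0457). TKDP4, a trophoblast Kunitz protein, was lower in the ED (-1.41, SE 0.39, adjusted p = 0.0291), and CGA (2.05, SE 0.45, adjusted p = 0.00700) and SLC2A5 (2.10, SE 0.58, adjusted p = 0.0386) were higher in the EEM. Between tissues 4 of 22 were higher in the ED, with the smallest p for TKDP4 (2.33, SE 0.27), CGA (2.11, SE 0.27) and PAG12 (1.72, SE 0.24), and 7 were lower, with the smallest p for KRT18 (-0.46, SE 0.09), CYP11A1 (-0.63, SE 0.13) and HSD17B1 (-0.74, SE 0.16). The shares of all genes were 14% and 10.2%, and the list ran from -0.80 to 3.45 with a median of -0.26. Genes of the interferon tau, PAG and TKDP families have near-identical copies, so that counts of single members are uncertain.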

How the data were processed

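RNA of 30 libraries from 17 embryos was sequenced as non-stranded, poly(A)-selected paired reads. The authors filtered reads with SOAPnuke, used STAR 2.7.0b with ARS-UCD1.3 for alignment and featureCounts (Subread 2.0.3) for gene-level counting, and deposited the raw counts without normalization. Among small counts, even numbers prevailed (2 counts in 19289 entries, against 1 count in 15257 and 3 in 13344), and halved counts were tried as an alternative. Gene IDs were looked up in RefSeq (assembly ARS-UCD2.0), which gave symbols for 31630 of 35092. Its positions were used to find genes that overlap a factor, although the reads had been aligned to ARS-UCD1.3.

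IVP and IVV embryos were compared within each tissue with edgeR 4.0.16 in R 4.3.3, using TMM, filterByExpr with at least 10 counts, 1 surrogate variable from svaseq (sva 3.50.0, on TMM-scaled counts) and its quasi-likelihood test, with p adjusted by Benjamini-Hochberg over all genes tested and a threshold of 0.05. Intervals used the t quantile at the degrees of freedom of that test. The study used DESeq2 with sva. ED and EEM were compared, and the interaction tested, in the 26 libraries of the 13 embryos with both tissues, with embryo as a block. The embryo named in the sample titles gives the pairing, and same-embryo deviations correlated with r from -0.30 (IVPF13) to 0.76. CPM used TMM factors, log2 CPM a prior count of 2, and a gene was at the floor when every library of a group held 3 counts or fewer, a limit that covers counting error only. Nothing states that embryos of a group are independent beyond being separate embryos, and embryos of 1 cow share that cow.

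The factors and all gene lists were chosen with earlier results of these data known. Besides the 10 factors, the rule named up to 3 genes per direction with the smallest p among those past the threshold in each of 4 related lists and each of 4 comparisons, paralogs by level, and the 2 genes most like each factor in each tissue. Markers named beside HAND1, XIST and the relation between tissues were chosen after values were seen. IFNT, PLAC8 and TKDP3 found no match by symbol. DESeq2 1.42.0, limma 3.58.1 and other normalizations, filters and covariates were alternatives. Correlations used 100000 permutations, or all of them for 8 embryos. The scripts were tested on simulated data. Sequences and transcript lengths were not used here, so levels are not compared between genes. Methylation data were not analysed here.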

Additional observations from a re-analysis of the deposited data

Results flagged for a closer look

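Each factor was screened in each of the 4 groups (40 screens) for a library whose gap to its neighbour took an unusually large share of the range of log2 CPM. Chance flags about 1 in 20 groups, which is the number found here. TEAD4 in the ED of VE28 was at 38.4 CPM, while the next lowest of the 9 IVV embryos was at 68.3 CPM, and the gap was 0.625 of the range (critical value 0.493). TEAD4 was also lowest in VE28 in the EEM of IVV embryos, at 58.4 CPM. HAND1 in the EEM of VE19 was at 0.107 CPM (5 counts), while the next lowest of the 8 IVV embryos was at 3.19 CPM, and the gap was 0.665 of the range (critical value 0.526).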

How the results depend on the processing

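Alternatives gave 977 values of single factors, of which 914 kept their direction and their side of the threshold. HAND1 became the 1 factor called lower in the ED of IVP embryos with 2 surrogate variables, limma voom, upper quartile normalization, no filter on low counts and the title letter as a term, and the count ran from 0 to 1 on leaving out embryos, with calls without IVP10, IVP11, IVPF15, VE19, VE3 or VE5 (log2 fold changes -1.76 to -1.56, against -1.76 to -1.23 over all 16). GATA2 became the 1 factor called higher in the EEM of IVP embryos with 2 surrogate variables, and the count ran from 0 to 1 on leaving out embryos, with calls without IVPF14 or VE19. Between tissues, 0 factors were called higher with at least 10 counts in every library, since HAND1 was then not tested, and 0 were called lower with upper quartile normalization. Without the replicate block, and so without the pairing of tissues by embryo, 0 were called lower (TFAP2A -0.64, adjusted p = 0.0804, and TFAP2C -0.33, adjusted p = 0.344, in edgeR), 1 was still called higher, and the interaction of ELF3 became 0.01.

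Some differences that passed no threshold changed sign. In the ED of IVP against IVV embryos, CDX2 was -0.06 with limma voom and -0.15 in embryos with both tissues, GATA3 was -0.01 with limma voom, TFAP2C was 0.00 in embryos with both tissues, and ELF3 was -0.01 with a surrogate variable from counts without normalization, an alternative chosen after seeing the data. In the EEM, GATA3 was 0.07 with 2 surrogate variables, 0.09 in embryos with both tissues, 0.02 with the title letter and 0.22 with XIST as a covariate. With XIST, TFAP2C was 0.06, ELF3 -0.40 and HAND1 0.20. TFAP2A was -0.13 with limma voom and ELF5 -0.10 without a surrogate variable. Between tissues with upper quartile normalization, TEAD4 was 0.00, ELF3 0.02, ELF5 0.04 and DLX3 0.00. On leaving out embryos, values crossed 0 in the ED for CDX2 (-0.10 to 0.59), GATA3 (-0.07 to 0.17), TFAP2C (-0.11 to 0.22), ELF3 (-0.15 to 0.28) and ELF5 (-0.17 to 0.38), in the EEM for GATA3 (-0.31 to 0.11), TFAP2A (-0.19 to 0.28), TEAD4 (-0.05 to 0.25) and ELF5 (-0.17 to 0.19), and in the interaction for ELF3 (-0.16 to 0.08). The cause was not tested. Depth, at 48713218 counts or more, leaves HAND1 in the EEM of VE19 with 5 counts.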
